A study of Mus musculus with 4 samples.

Results

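The genes described here encode the aminoacyl-tRNA synthetases, the enzymes that load each tRNA with its amino acid. They were chosen by gene symbol: 20 listed genes for the cytosolic enzymes and every gene whose symbol has the form of a mitochondrial synthetase, a single amino acid letter before "ars2", which gave 17. These 37 genes, of 21889 listed, were measured by RNA-seq in 4 mouse cell lines from acute myeloid leukaemias of BXH-2 mice, a strain in which an endogenous retrovirus drives this disease. The parental lines, B117P and B140P, are sensitive to Ara-C (cytarabine, the nucleoside analog at the centre of leukaemia chemotherapy), with a labelled IC50, the dose for a half-maximal effect, of about 150 and 110 ng/ml. B117H was derived from B117P and B140H from B140P, and both are labelled highly resistant, with an IC50 of about 160 and 60 µg/ml. Per the labels' protocols, the cells were passaged in ASM medium without Ara-C, and exposure to rising Ara-C doses is entered for all 4 lines alike. Each line gave 1 library, each resistant line is 1 derived line, and the labels name no separate cultures.

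Each synthetase recognises 1 amino acid and its tRNAs, except that Eprs encodes a glutamyl and a prolyl enzyme joined in 1 protein. An error or shortage at this step reaches the proteins made by the ribosomes that the enzyme supplies. The cytosolic and the mitochondrial protein synthesis machineries mostly use separate synthetases, all encoded in the nucleus, and the mitochondrial set serves only the few proteins made from mitochondrial DNA, which are subunits of the respiratory chain and ATP synthase. Several cytosolic synthetases sit together in a multi-synthetase complex with scaffold proteins. In many cell types the transcription factor ATF4, which is made when amino acids run short and uncharged tRNA activates the kinase GCN2, raises transcription of cytosolic synthetase genes through C/EBP-ATF response elements.

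The deposited values are FPKM, fragments scaled to transcript length and library size, so levels can be set side by side between genes within a library. Steps in the low values of single-transcript genes placed the 4 libraries at between 19280000 and 24520000 fragments, an estimate rather than a stated depth. From a pool of 761 such genes, between 67 and 91 values per library were low enough to be used. All 37 members reached a mean of 1 FPKM over the 4 libraries, the minimum that 10066 genes passed. The haematopoietic genes Ptprc (50.1 to 89.0 FPKM) and Spi1, listed as Sfpi1 (76.6 to 111 FPKM), were present in all 4 libraries, but Kit and Cd34, genes of immature blood cells, were at 29.9 and 200 FPKM in B117P and 34.2 and 206 FPKM in B117H against at most about 0.04 FPKM in both B140 libraries. The myeloid granule gene Mpo was at 1450, 473, 10.4 and 0.91 FPKM in B117P, B117H, B140P and B140H. The B-cell gene Cd79a was at 0.40, 0.04, 6.63 and 16.1 FPKM in the same order, while the B-cell gene Ms4a1 was at 0.03 FPKM or less. T and NK markers summed to 0.02 FPKM or less, and the stromal and epithelial markers Col1a1, Col1a2 and Epcam were each at 0.06 FPKM or less. Erythroid markers were not absent, with sums of 6.57, 3.73, 1.98 and 8.67 FPKM in B117P, B117H, B140P and B140H. The endothelial and myeloid surface gene Pecam1 was at 7.98 to 30.7 FPKM.

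Cytosolic synthetase genes were among the more abundant mRNAs of every line, and mitochondrial ones were not. The cytosolic median was 64.2 FPKM in B117P, 56.1 in B117H, 54.0 in B140P and 62.7 in B140H, which lay at the 88.2, 87.2, 86.3 and 86.1 percentile of expressed genes. The mitochondrial median was 10.1, 8.45, 11.5 and 12.8 FPKM in the same order, between the 38.3 and 47.7 percentile. The cytosolic median was thus 6.35, 6.64, 4.69 and 4.92 times the mitochondrial median, lower in the B140 lines than in the B117 lines and nearly the same in a resistant line as in its parent. All 20 cytosolic genes were above the median expressed gene in B117P, B117H and B140H, and 19 in B140P, where Cars (12.7 FPKM) was just under it. Of the 17 mitochondrial genes, 5, 5, 6 and 8 were above that median in B117P, B117H, B140P and B140H.

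**Figure D1:**
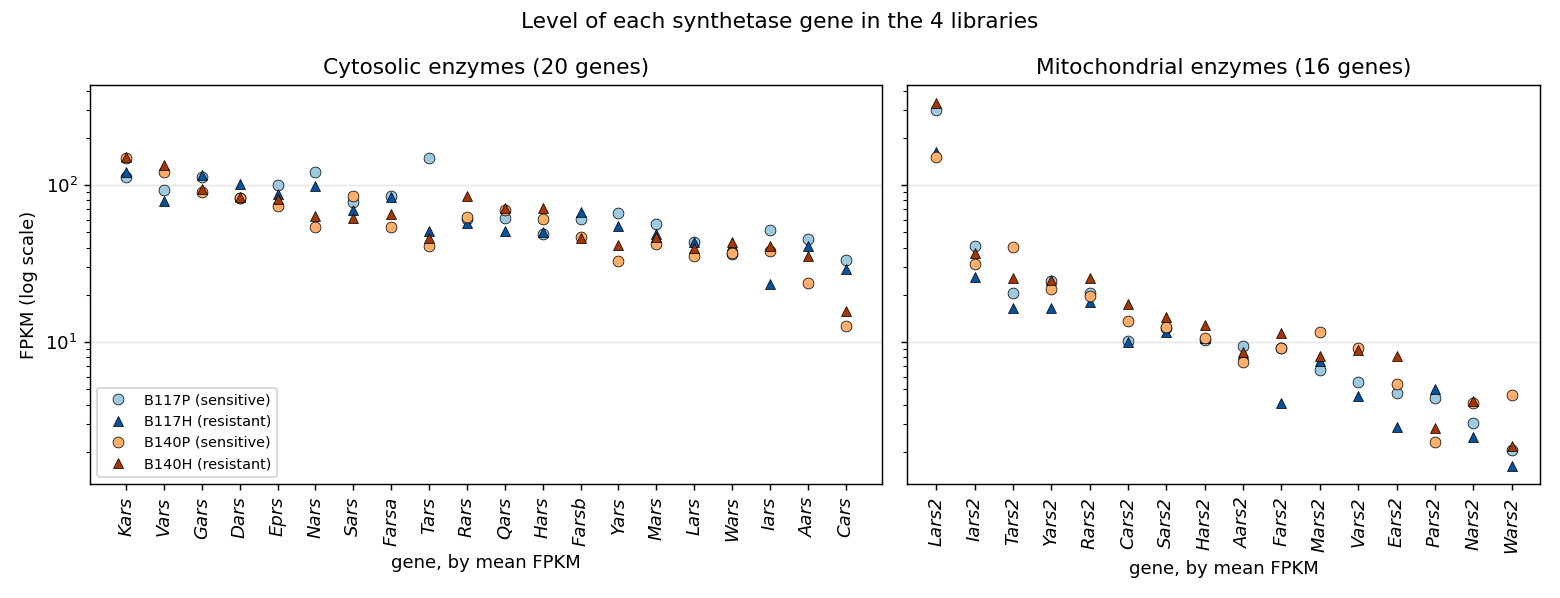
FPKM on a log axis of each cytosolic (left, 20 genes) and mitochondrial (right, 16 of the 17 genes) synthetase gene in the 4 libraries, ordered by mean FPKM; circles are the sensitive parental lines and triangles the resistant lines, with blue for lineage B117 and orange for lineage B140. Most cytosolic genes lie between 30 and 150 FPKM, most mitochondrial genes below 30, and Lars2 stands above both sets.

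By mean FPKM the most abundant cytosolic gene was Kars (112, 121, 149 and 151 FPKM in B117P, B117H, B140P and B140H), whose lysyl-tRNA synthetase serves both compartments through alternative splicing. Next came Vars, the valyl enzyme (93.4, 79.8, 121 and 134 FPKM), and Gars, the glycyl enzyme (112, 116, 90.3 and 94.9 FPKM), which like Kars makes the protein for both compartments. The lowest were Cars, the cysteinyl enzyme (33.2, 29.2, 12.7 and 15.9 FPKM), Aars, the alanyl enzyme (45.1, 40.9, 23.7 and 35.5 FPKM), and Iars, the isoleucyl enzyme (52.1, 23.6, 37.8 and 41.1 FPKM). Vars was higher in the B140 lines than in the B117 lines, and Cars and Aars were lower there.

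Among the mitochondrial genes Lars2, the leucyl enzyme, was at 301, 163, 150 and 333 FPKM, the highest of the 17 in every library and 3.71 to 9.02 times the next one. Only Lars2 exceeded the cytosolic median in any library. Iars2, the isoleucyl enzyme (40.8, 26.0, 31.4 and 37.0 FPKM), and Tars2, the threonyl enzyme (20.5, 16.5, 40.5 and 25.7 FPKM), followed. The lowest were Wars2, the tryptophanyl enzyme (2.05, 1.63, 4.61 and 2.19 FPKM), Nars2, the asparaginyl enzyme (3.03, 2.47, 4.07 and 4.22 FPKM), and Pars2, the prolyl enzyme (4.40, 5.04, 2.32 and 2.83 FPKM).

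For 14 amino acids a cytosolic and a mitochondrial gene could be paired, leaving glycine and lysine (1 gene for both compartments), glutamate and proline (joined in the cytosolic gene Eprs), phenylalanine (2 cytosolic subunits, Farsa and Farsb) and glutamine (no "Qars2"). The cytosolic gene was the higher in all 4 libraries for 11 of the 14. The widest gap was at asparagine, where Nars was 40.2 times Nars2 in both B117 libraries, 13.2 times in B140P and 15.1 times in B140H. Leucine ran the other way, with Lars at 0.14, 0.27, 0.24 and 0.12 times Lars2. For cysteine the cytosolic gene was the higher in the B117 lines (3.28 and 2.91 times) but not in the B140 lines (0.94 and 0.91 times), and for isoleucine it was the lower in B117H (0.91 times) only. The threonine pair ran from 7.22 times in B117P and 3.08 in B117H to 1.01 in B140P and 1.80 in B140H.

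**Figure D2:**
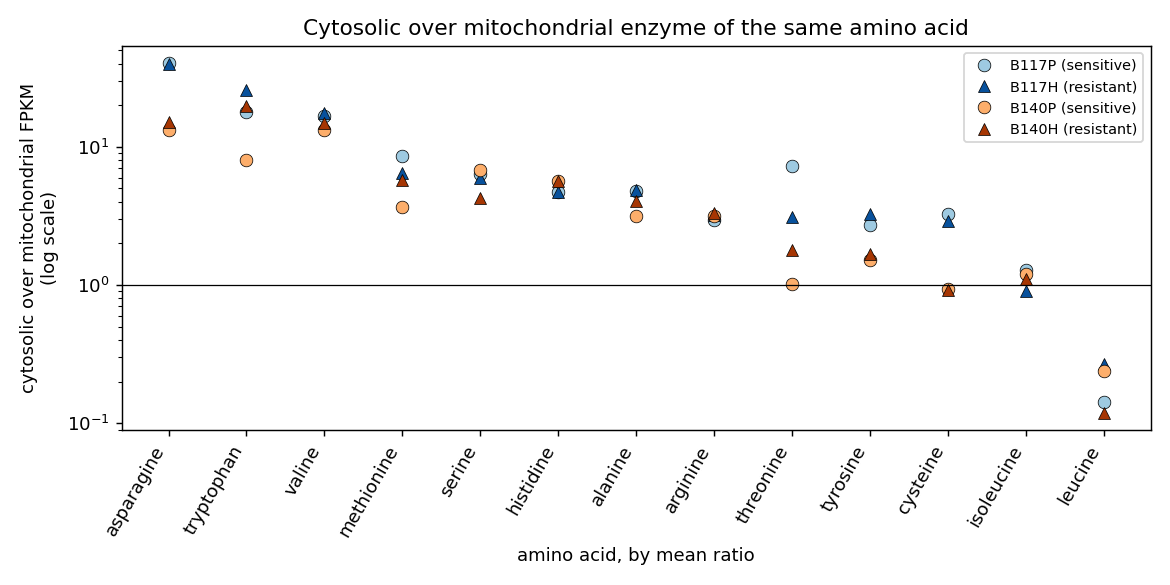
Ratio of cytosolic to mitochondrial FPKM (log axis) for 13 of the 14 amino acids with 1 gene for each compartment, ordered by mean ratio; circles are sensitive parental lines, triangles resistant lines, blue lineage B117 and orange lineage B140, and the line marks equal levels. Of the 13 amino acids plotted, 10 lie above the line in all 4 libraries, and leucine lies below it in all 4.

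Whether resistant lines differ from their parents was asked in each lineage from the log2 ratio of FPKM + 1, resistant over parental. Since each line has a single library, no test was possible inside a lineage, and a gene was called changed by size alone, at 2-fold or more (a log2 ratio of 1 or -1). In lineage B117, 2 members fell past 2-fold, Tars and Iars, where 3.21% of expressed genes fell, and 0 members rose, where 1.41% rose. In lineage B140, 1 member rose, Lars2, where 2.31% of expressed genes rose, and 0 fell, where 1.63% fell. Lars2 missed the rule by little in B117 in the opposite direction, as did Fars2, and Wars2 in B140 was also close. At 1.5-fold, 6 members fell in B117 (among them Tars, Iars, Fars2, Lars2 and Iars2; 9.16% of expressed genes) and 0 rose (4.66%), while in B140 only Lars2 rose (8.39%) and Tars2 and Wars2 fell (4.68%). These shares are the background against which such counts are to be read: the 2 of 37 members that fell in B117 stand beside 323 of 10066 expressed genes. In RNA from a whole culture, fewer cells of a type and less RNA per cell cannot be told apart.

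Tars, the threonyl-tRNA synthetase gene (chr15:11313418-11329413 in the mm9 positions of the files), was at 148 FPKM in B117P, 50.8 in B117H, 40.9 in B140P and 46.3 in B140H. The parental B117 line stood alone, and the other 3 lines were close to each other. Tars fell 2.91-fold in B117 (log2 ratio -1.52) and was at 0.17 in B140, or -0.043 there after quantile normalization. The 95% interval for counting error alone, from the estimated fragments, was -1.59 to -1.49 in B117. In the parental line Tars was the most abundant cytosolic synthetase mRNA, and in the other 3 lines it was below the cytosolic median.

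Iars, the isoleucyl enzyme of the multi-synthetase complex (chr13:49777499-49829636), had its only low value in B117H, 23.6 FPKM against 52.1 in B117P. It fell 2.21-fold there, a log2 ratio of -1.11 with a counting interval of -1.22 to -1.06. Between B140P (37.8 FPKM) and B140H (41.1 FPKM) the log2 ratio was 0.12, or -0.079 after quantile normalization. Of 31-base words of its longest coding transcript, 17.7% also occur in transcripts of other genes, most of them in the pseudogene Gm4849, so fragments could be split between them.

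**Figure D3:**
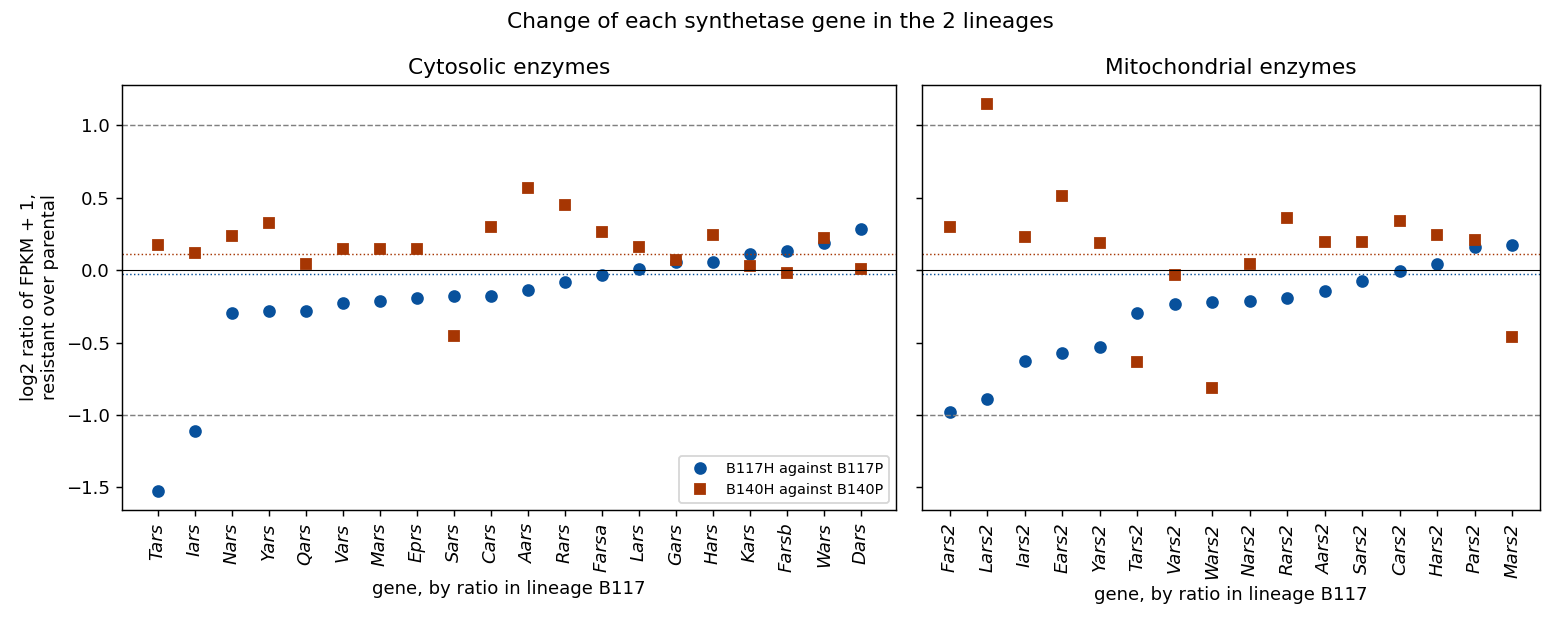
Log2 ratio of FPKM + 1, resistant over parental, for 20 cytosolic (left) and 16 mitochondrial (right) synthetase genes, ordered by the ratio in lineage B117; blue circles are B117H against B117P, orange squares B140H against B140P, dashed lines mark 2-fold and dotted lines the median of all expressed genes in each lineage. Tars and Iars lie below -1 in B117, Lars2 lies above 1 in B140, and most other genes lie within 0.5 of 0.

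The other cytosolic genes moved little in B117. Nars, the asparaginyl enzyme (122, 99.3, 53.9 and 63.6 FPKM), and Yars, the tyrosyl enzyme (66.6, 54.5, 32.8 and 41.4 FPKM), had the next lowest log2 ratios, -0.29 and -0.28. Dars, the aspartyl enzyme, had the highest (83.0, 101, 83.4 and 84.0 FPKM; log2 ratio 0.29), before Wars (0.19), Farsb (0.13) and Kars (0.11). The remaining cytosolic genes, Qars, Vars, Mars, Eprs, Sars, Cars, Aars, Rars, Farsa, Lars, Gars and Hars, lay between -0.28 and 0.06.

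In B140 the 20 cytosolic genes spanned -0.45 to 0.57. The highest log2 ratios were those of Aars (0.57), Rars, the arginyl enzyme (61.0, 57.7, 62.5 and 85.7 FPKM; 0.45), Yars (0.33) and Cars (0.30). Sars, the seryl enzyme, had the lowest, at 78.0, 68.9, 85.1 and 61.9 FPKM with a log2 ratio of -0.45. Farsb, the beta subunit of the phenylalanyl enzyme (61.0, 66.9, 47.0 and 46.2 FPKM), Dars and Kars followed at -0.02, 0.01 and 0.03. None of these passed 2-fold or 1.5-fold on this scale.

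Lars2, the mitochondrial leucyl-tRNA synthetase gene (chr9:123276058-123371782), moved in opposite directions in the lineages. Its level in B117H was lower than in B117P by 1.85-fold (163 against 301 FPKM, log2 ratio -0.89), and it rose 2.22-fold in B140H (333 against 150 FPKM, log2 ratio 1.15). The highest and the next highest value are thus a resistant and a sensitive line. The counting intervals were -0.92 to -0.86 and 1.12 to 1.18. After quantile normalization of the libraries the ratio in B140 was 0.76, short of 2-fold. The Lars2 transcript shares 1.09% of its 31-base words with other genes' transcripts and none with a gene of the mitochondrial genome. Reads were not used here, so whether fragments of similar sequence outside these transcripts, such as nuclear ribosomal RNA, were counted in Lars2 was not tested, and its level and ratios are uncertain to that extent.

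RNAs without a poly(A) tail were set beside Lars2. Rmrp and Rpph1, the RNA parts of ribonucleases MRP and P, which carry no poly(A) tail, were at 30.5 and 30.2 FPKM in B117P, 11.7 and 8.42 in B117H, 1.81 and 7.18 in B140P, and 11.4 and 14.3 in B140H. Their log2 ratios were -1.32 and -1.73 in B117 and 2.14 and 0.91 in B140. Of 30 expressed replication-dependent and related histone genes, whose mRNAs mostly lack a tail, 28 had ratios below 0 in B117 (median -0.82, beside 53.4% and -0.03 over all expressed genes) and 23 above 0 in B140 (median 0.39, beside 63.0% and 0.11). Most of the 30 are Hist1 genes, neighbours in a single cluster. Outside it, Hist2h2bb, Hist2h2be, Hist2h4, Hist3h2a and Hist4h4 were at -0.65, 0.42, -0.06, -0.01 and -0.45 in B117. In B140 they were at 0.56, -0.82, -0.01, 0.29 and 1.05. The part of chromosomal position in the histone ratios was not tested. The histone genes were also not set against the stretch of chromosome 13 described below. There the 44 expressed genes between Fars2 and Iars had a median of -0.82 in B117. The choice of these RNAs followed sight of their values, the labels give total RNA without naming a selection step, and the part of RNA selection in the Lars2 values was not tested.

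The other mitochondrial genes were mostly lower in B117H. Fars2, the phenylalanyl enzyme, was at 9.10, 4.11, 9.15 and 11.5 FPKM, so that B117H was the low library, with a log2 ratio of -0.98 on the FPKM + 1 scale and a counting interval of -1.44 to -0.85 (FPKM themselves differed 2.21-fold). With a pseudocount of 0.1 in place of 1 its log2 ratio was -1.13, past the rule. Ears2, the glutamyl enzyme, was at 4.74, 2.86, 5.41 and 8.16 FPKM (log2 ratios -0.57 and 0.51). In both of these genes, as in Iars2 (-0.63 and 0.23), B117H was the lowest library. Of the 31-base words of Iars2, 36.8% occur in transcripts of other genes, here the overlapping Rab3gap2. The share was over 10% for 6 members, among them Aars (22.7%, with Exosc6), Cars2 (19.7%, with Naxd) and Farsb (11%, with Sgpp2).

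In B140 the lowest mitochondrial ratios were those of Wars2 (-0.82; 4.61 FPKM in B140P and 2.19 in B140H), Tars2 (-0.64; 40.5 and 25.7 FPKM) and Mars2, the methionyl enzyme (6.62, 7.58, 11.5 and 8.10 FPKM; -0.46). For all 3 B140P was the highest of the 4 libraries. With a pseudocount of 0.1 the ratio of Wars2 was -1.04, past 2-fold. Vars2, the valyl enzyme, was at 5.53, 4.56, 9.16 and 8.94 FPKM (-0.03). Rars2, the arginyl enzyme (20.6, 17.9, 19.8 and 25.7 FPKM), and Cars2, the cysteinyl enzyme (10.1, 10.04, 13.5 and 17.4 FPKM), had ratios of 0.36 and 0.34. Yars2, Nars2, Aars2, Sars2, Hars2 and Pars2 lay between -0.53 and 0.16 in B117 and between 0.04 and 0.24 in B140.

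The class medians leaned in opposite directions in the lineages, by small amounts. In B117 the median log2 ratio was -0.16 over the 20 cytosolic and -0.22 over the 17 mitochondrial genes, against -0.03 over all expressed genes. In B140 it was 0.15 and 0.21 against 0.11, and after quantile normalization the cytosolic median in B140 was -0.058, so its sign rests on the scaling. Ratios were below 0 in B117 for 13 of 20 cytosolic and 14 of 17 mitochondrial genes, beside 53.4% of expressed genes. They were above 0 in B140 for 18 of 20 and 13 of 17, beside 63.0% of expressed genes, and after quantile normalization for 8 of 20 and 13 of 17, beside 51.0%. Lower in B117H and higher in B140H were 23 of the 37 (12 cytosolic and 11 mitochondrial), beside 36.4% of expressed genes. After quantile normalization these were 15 of 37 (5 cytosolic and 10 mitochondrial), beside 25.8%. Single genes spread far wider than the class medians stood apart, from -1.52 to 0.29 (cytosolic) and -0.98 to 0.17 (mitochondrial) in B117. No test of the difference between lineages was made, since each lineage has 1 library a line.

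The 8 cytosolic genes of the multi-synthetase complex (Dars, Eprs, Iars, Kars, Lars, Mars, Qars and Rars) had a median log2 ratio of -0.14 in B117 and 0.13 in B140, beside -0.16 and 0.23 for the 12 outside it. The 10 genes of class I enzymes, which share the Rossmann-fold catalytic domain, had medians of -0.20 and 0.15, and the 10 of class II enzymes 0.01 and 0.12. Eprs was counted in class I by its glutamyl part, while its prolyl part is of class II. Of the genes that fell in B117, Iars is a class I enzyme of the complex and Tars a class II enzyme outside it.

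Counting error was small beside most of these ratios. Its 95% interval excluded 0 for 28 members in B117 and 30 in B140, with estimated fragments per gene and library from 98 to 31817. These intervals cover counting error only, not the difference between cultures of 1 line, which 1 library a line does not show.

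Both resistant libraries were above both sensitive ones for 3 members, where 10.3% of expressed genes were so placed: Dars, Wars, the tryptophanyl enzyme (36.5, 41.7, 37.1 and 43.3 FPKM), and Hars2, the histidyl enzyme (10.4, 10.7, 10.6 and 12.8 FPKM). Sars alone was below, beside 5.39% of expressed genes. In Dars the highest sensitive value, 83.4 FPKM, and B140H, at 84.0, all but coincide. In the limma fit of log2(FPKM + 1) over all 10066 genes, with the lineage as a block, 0 members and 0 genes passed an adjusted p of 0.05 (0% of genes), while 218 genes and 0 members had an unadjusted p under 0.05. The lowest member p was that of Tars2 (log2 change -0.47, SE 0.24, adjusted p = 0.999547 in limma, lower in both resistant lines). That fit has 1 residual degree of freedom, and its p-values cover only these 4 libraries. The spread they rest on is how far the ratios of the lineages disagree, moderated by a variance trend over all 10066 genes. Opposite changes count there as spread, as in Lars2, whose log2 ratios of -0.89 in B117 and 1.15 in B140 gave a log2 change of 0.13.

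Where the genes lie on the chromosomes was set beside their ratios. For each member the median log2 ratio of its 25 nearest expressed genes was taken, which lay within 0.412 to 11 Mb. The genes around Tars were lower in B117H as Tars was, with a median of -1.35 and 23 of 25 below 0, so that its own ratio differed from theirs by -0.18. Iars and Fars2 lie 13.1 Mb apart on chromosome 13. The neighbours of Iars had a median of -0.76 and those of Fars2 of -0.89, with 23 and 25 of 25 below 0. Of the 44 expressed genes between the pair, 43 were below 0 in B117 (median -0.82), while their median in B140 was 0.13. Eef1e1, a scaffold protein gene of the multi-synthetase complex, lies in the same stretch and fell in B117H (41.5, 17.9, 41.5 and 38.5 FPKM; log2 ratio -1.17).

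Yars2, the mitochondrial tyrosyl enzyme on chromosome 16 (24.4, 16.6, 21.7 and 24.8 FPKM), had a ratio of -0.53 in B117 beside -0.52 for its neighbours. In B140 the genes with low neighbours were those on chromosome 3. Tars2, Wars2 and Sars are spread there over 12.7 Mb, and their ratios of -0.64, -0.82 and -0.45 stood beside neighbour medians of -0.66, -0.54 and -0.41. Between Tars2 and Sars 84 of 93 expressed genes were below 0 in B140 (median -0.51) and 46 of 93 in B117 (median 0.00). A neighbour median of -0.4 or lower was found for 4 members in B117 and 3 in B140, beside 7.14% and 3.30% of expressed genes. Gene copy number was not measured, and its part in these stretches was not tested.

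Other members departed from their surroundings. Lars2 had neighbour medians of 0.02 in B117 and 0.14 in B140, which left it -0.91 and 1.01 away from them. Iars2 and Ears2 differed from their neighbours by -0.61 and -0.53 in B117, and Mars2 by -0.54 in B140. After the neighbour median was subtracted, 0 members fell 2-fold in B117, and Lars2 was the only member past 2-fold in B140. Across the 37 genes the Pearson correlation of a member's ratio with that of its neighbours was 0.76 in B117 and 0.62 in B140. Spearman's rho was 0.34 and 0.12. Without the members whose neighbours had a median of -0.4 or lower, Pearson's r was 0.18 over 33 genes in B117 and -0.042 over 34 in B140. Over 10063 expressed genes, which share neighbours with each other, Pearson's r was 0.27 and 0.26.

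**Figure D4:**
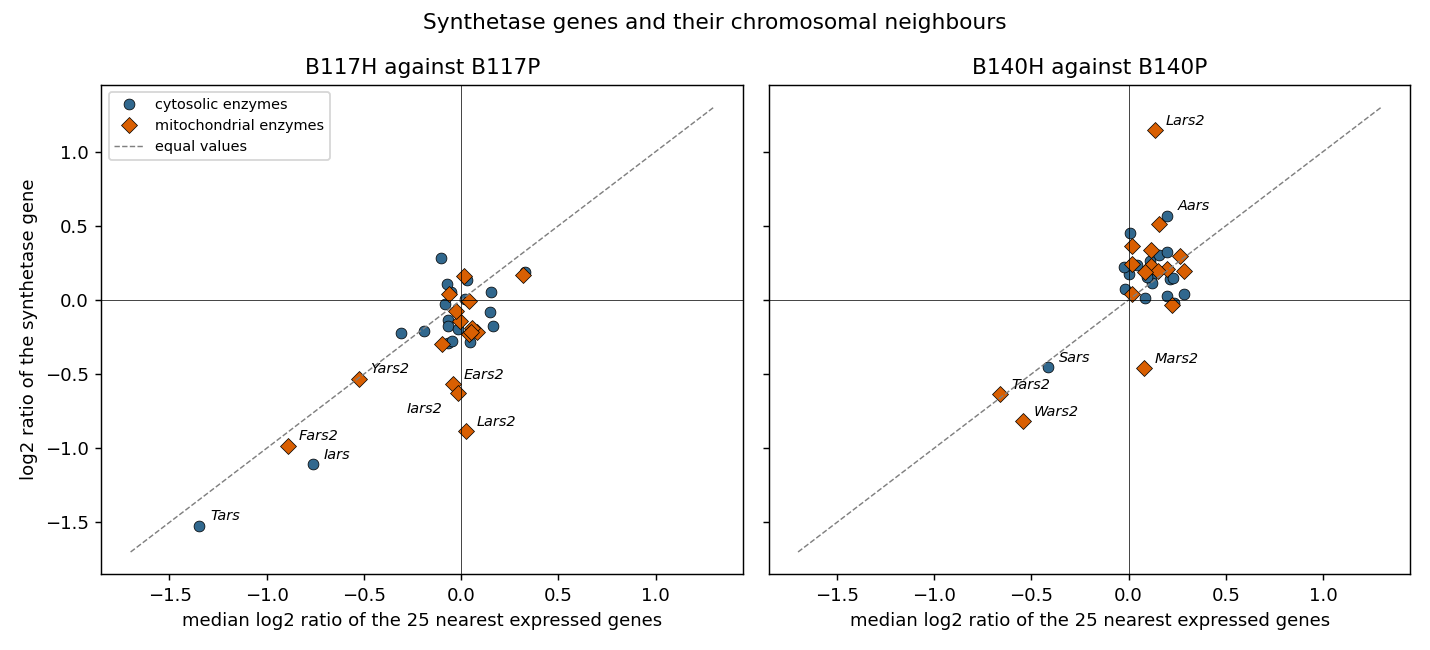
Log2 ratio of 36 synthetase genes (vertical axis) against the median log2 ratio of the 25 nearest expressed genes of each (horizontal axis) in lineage B117 (left) and B140 (right); circles are cytosolic and diamonds mitochondrial enzymes, and the dashed line marks equal values. Tars, Iars, Fars2 and Yars2 in B117 and Tars2, Wars2 and Sars in B140 lie near the line at low values, while Lars2 lies far from it in both.

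Levels of the lineages were also set against each other, parental with parental and resistant with resistant, with the reserve that the labels do not say whether the 4 libraries were scaled together. B140P was lower than B117P by 2-fold or more for 4 members, Tars (-1.83), Cars (-1.32), Nars (-1.16) and Lars2 (-1.0), where 10.8% of expressed genes were, and higher for 0, where 5.83% were. Yars, at 66.6 against 32.8 FPKM, was just outside the rule. B140H was higher than B117H by 2-fold or more for 4 members, all mitochondrial, among them Fars2 (1.29), Ears2 (1.24) and Lars2 (1.03), where 9.69% of expressed genes were higher, and lower for 0, where 9.19% were lower. With the libraries centred on the median ratio, that count of 4 in the resistant lines was 2. The mitochondrial median of these differences was 0.02 between the parents and 0.55 between the resistant lines, beside 0.15 over all expressed genes in the latter. Of the 17 mitochondrial genes, 16 were higher in B140H than in B117H, beside 60.1% of expressed genes, and 14 after quantile normalization, beside 52.5%. The cytosolic median was -0.34 between the parents and -0.13 between the resistant lines, with 8 and 7 of 20 genes higher in the B140 line.

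Since cytosolic synthetase genes are known targets of ATF4, the window from 250 bases before to 50 bases after the start was read for the C/EBP-ATF response element, searched as TGATGNAA on both strands. RefSeq windows (build GRCm38.p6) matched 27 of the 37 members, 13 cytosolic and 14 mitochondrial. Those not matched included Cars, Hars, Lars, Nars, Rars, Vars, Wars, Hars2 and Pars2. The letters were found in 5 cytosolic windows, those of Aars, Gars, Iars, Tars and Yars, and in 0 mitochondrial windows, beside 3.97% of all 32851 windows of that length. The 5 windows are shown from 130 bases before to 20 after the start, 5′ to 3′ along the gene, with the matching letters in capitals (on the other strand in all but Yars). The windows are chr8:111033712-111033861 (+) for Aars, chr6:55037871-55038020 (+) for Gars, chr13:49682000-49682149 (+) for Iars, chr15:11399639-11399788 (-) for Tars and chr4:129189773-129189922 (+) for Yars.
Aars: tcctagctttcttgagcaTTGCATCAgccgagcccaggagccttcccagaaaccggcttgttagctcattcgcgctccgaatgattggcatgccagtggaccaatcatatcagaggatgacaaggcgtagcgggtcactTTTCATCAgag
Gars: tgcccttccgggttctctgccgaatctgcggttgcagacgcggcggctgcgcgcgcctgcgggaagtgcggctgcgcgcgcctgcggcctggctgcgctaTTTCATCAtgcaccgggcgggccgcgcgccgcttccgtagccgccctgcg
Iars: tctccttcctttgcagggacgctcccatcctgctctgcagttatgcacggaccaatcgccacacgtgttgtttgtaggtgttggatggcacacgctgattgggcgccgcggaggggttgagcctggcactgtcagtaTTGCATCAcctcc
Tars: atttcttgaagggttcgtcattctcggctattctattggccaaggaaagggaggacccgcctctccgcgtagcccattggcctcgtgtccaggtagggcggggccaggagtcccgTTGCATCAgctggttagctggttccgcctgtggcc
Yars: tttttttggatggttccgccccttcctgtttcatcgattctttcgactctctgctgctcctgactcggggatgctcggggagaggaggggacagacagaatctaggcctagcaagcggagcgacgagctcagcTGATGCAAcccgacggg

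The match begins 112 bases before the start and again 10 after it in Aars, 30 before in Gars, 15 before in Tars, 8 after in Iars and 4 after in Yars. Read against the lines, B140P was lower than B117P for all 5 of these genes, with log2 differences of -0.90 (Aars), -0.31 (Gars), -0.45 (Iars), -1.83 (Tars) and -1.0 (Yars), a median of -0.90. For the 8 matched cytosolic genes without the letters (Dars, Eprs, Farsa, Farsb, Kars, Mars, Qars and Sars) the median was -0.18, with 4 of 8 lower in B140P. Between the resistant lines the medians were -0.20 and -0.12. Over all expressed genes, 5013 of 10066 were higher in B140P than in B117P, and 8 of the 20 cytosolic genes were. The cytosolic genes without a matched window are in neither group. Among them Cars (-1.32), Nars (-1.16) and Lars (-0.27) were lower in B140P, and Hars, Rars, Vars and Wars were higher. Whether the letters bear on the levels was not tested. A match is a stretch of letters, and binding of a factor to it was not measured.

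Atf4 itself was at 182, 148, 75.2 and 86.3 FPKM in B117P, B117H, B140P and B140H, higher in the B117 lines than in the B140 lines. Its log2 ratio was -0.30 in B117 and 0.20 in B140. Eif2ak4, the gene of GCN2, was at 6.34, 6.58, 7.13 and 7.78 FPKM. Of 28 expressed genes listed as ATF4 targets outside the synthetases, Atf4 itself among them, 25 had ratios below 0 in B117, beside 53.4% of expressed genes. Their median was -0.49 beside -0.03 over all expressed genes. In B117, 5 of the 28 fell past 2-fold, where 3.21% of expressed genes fell. Those named by size were the stress-induced transcription factor gene Atf3 (6.07, 0.37, 1.45 and 2.10 FPKM; -2.37), Nupr1 (11.4, 1.95, 0 and 0.08 FPKM; -2.08), Cebpb (7.31, 1.17, 17.6 and 19.8 FPKM; -1.94) and Psph, an enzyme of serine synthesis (15.6, 3.59, 11 and 6.17 FPKM; -1.86). The remaining one was Pycr1, an enzyme of proline synthesis (-1.11). In B140, 0 of the 28 passed 2-fold, where 2.31% of expressed genes rose and 1.63% fell. Their median there was 0.01 beside 0.11 over all expressed genes. Asns, the asparagine synthetase gene, was at 25.9 and 20.9 FPKM in the B117 lines and 0.06 and 0 in the B140 lines. The asparaginyl-tRNA synthetase gene Nars was also lower in the B140 lines, by far less (log2 differences -1.16 between parents and -0.64 between resistant lines). This was not particular to Nars, since Cars differed by more (-1.32 and -0.84). Of the 20 cytosolic genes, 8 were higher in B140P than in B117P. A link between Asns and Nars was not tested.

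Among the scaffold proteins of the synthetase complex, Aimp1 was at 59.8, 68.8, 51.6 and 94.9 FPKM (log2 ratios 0.20 and 0.87) and Aimp2 at 35.4, 35.6, 80.6 and 123 FPKM (0.01 and 0.60), so that of the 3 only Eef1e1, in B117, passed 2-fold. The neighbours of Aimp1 and Aimp2 had medians of 0.61 and 0.39 in B140. None of 12 related tRNA enzymes passed in B117, and in B140 Tarsl2, a threonyl-tRNA synthetase-like gene, was at 1.92 FPKM in the parent and listed at 0 in the resistant line. Of 9 mitochondrial translation factors and 5 cytosolic elongation factors 0 passed in either lineage, and of 9 stress response genes, the eIF2 kinases and their partners, 0 passed.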

How the data were processed

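The authors deposited 1 FPKM value per gene for each of the 4 libraries, with mm9 positions. Per the submitters' processing notes, TopHat2 2.0.4, Cuffdiff and the mm9 build were used. The version of Cuffdiff, the transcript annotation, and whether the libraries were scaled together are not given in the sources used here. Listed starts were counted from 0, as 6285 equal spans in a RefSeq table against 434 on the other reading showed, so 1 was added. No column was left unmapped (0).

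The members and lists were chosen with earlier results of these data known. From the FPKM, log2 ratios with a pseudocount of 1 were computed for 10066 genes, those whose mean over the libraries reached 1 FPKM, and 2-fold was the rule for a change. Values in all 4 libraries are given for members past that rule, the 4 highest and 4 lowest ratios per lineage and class, the 3 highest and 3 lowest levels per class, the extreme amino acid pairs, and members whose resistant libraries lie on one side of both sensitive ones. The values of 1 mitochondrial member, which the counts and medians include, and of 1 marker gene are not reported here. The paired comparison used limma 3.58.1 in R 4.3.3 on log2(FPKM + 1), two-sided, with a trended prior variance and p-values adjusted by Benjamini-Hochberg at 0.05. It was also run on simulated data in which the changed genes moved alike in both lineages. That run does not show how the fit serves genes whose ratios differ between the lineages. The lineage block comes from the series design, which names the parent of each resistant line.

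Depth was estimated from low values of single-transcript genes of at least 3000 bases, as the fragment number that made most values whole. Between 67.8% and 80.6% came within 0.15 of a whole number, and since the same values set the unit, this is no independent check. The 95% counting intervals rest on it. Promoter windows and transcripts came from RefSeq (GRCm38.p6) and GENCODE vM21. Each member's longest coding transcript was read in words of 31 bases. The pseudocount, the minimum level, the scaling, the neighbours, the fold rule, the block and single libraries were varied.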

Additional observations from a re-analysis of the deposited data

Results flagged for a closer look

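Several values ran in opposite directions in the lineages, lower in B117H than in B117P and higher in B140H than in B140P. The difference between lineages was not tested in any of them, because each line has 1 library. The median log2 ratio of the cytosolic genes was -0.16 in B117 and 0.15 in B140, and that of the mitochondrial genes was -0.22 and 0.21. Iars was at -1.11 and 0.12 and Tars at -1.52 and 0.17. After quantile normalization the B140 values of the cytosolic median, Iars and Tars were -0.058, -0.079 and -0.043, so that these no longer ran in opposite directions. Lars2 was at -0.89 and 1.15.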

How the results depend on the processing

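With the median of 25 neighbouring genes subtracted, 0 members fell in B117 in place of 2, and at 1.5-fold 6 did. In B140 the single rise became 0 after quantile normalization, and 0 falls became 1 with a pseudocount of 0.1 and 2 at 1.5-fold. Between the parental lines, 0 members higher in B140P became 1 with a pseudocount of 0.1 and 1 after quantile normalization. Between the resistant lines, 4 members higher in B140H became 2 after centring and 2 after quantile normalization, where 0 lower became 1. The single member below in both resistant lines became 2 after centring on the median level and 2 after quantile normalization. The cytosolic median in B140 was -0.058 after quantile normalization in place of 0.15. The cytosolic to mitochondrial ratio in B117H was 5.41 in place of 6.64 with a minimum of 5 FPKM, which drops low mitochondrial genes. Otherwise the cause was not tested. The alternatives between lineages, the counts of signs and the correlation without low stretches were chosen after seeing the data.

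Limma called 4 genes at a minimum of 5 FPKM in place of 0. Without the lineage block it called 0 genes, as with it, and 0 members in every setting run on all libraries. The fits with 1 library left out also dropped the lineage block, so lineage and resistance are mixed in them. They leave a group with 1 library, which is assumed to vary like the others, so their calls are not counted here. Over 13 members, 10 of 176 alternative values changed their direction or their side of 2-fold. Of these, 4 changed sign, all in B140: Tars -0.043 and Iars -0.079 after quantile normalization, Iars -0.0012 and Tars2 0.022 with the neighbours subtracted. The 166 that held are not all evidence of stability. Other minimum levels and the removal of overlapping members leave a gene's own ratio unchanged, so those values could not differ. Over all members, quantile normalization changed the sign of 2 ratios in B117 and 10 in B140, and centring of 1 and 5. Counting error limits the mitochondrial genes most, since the fewest fragments estimated for a member were 98. One library a line limits all ratios.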
